A study of Mus musculus with 15 samples.

Results

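The 8 genes described here in whole mouse kidney after folic acid injury are the S100 genes S100a1, S100a6, S100a8, S100a9, S100a10, S100a11 and S100a13, and Retnlg. They were taken by symbol from the deposited table of normalised counts, in which all 8 members were found among 19602 genes. The 15 libraries came from 4 groups at day 14: G3 folic acid (n = 4), G3 vehicle (n = 4), WT folic acid (n = 3) and WT vehicle (n = 4). G3 stands for mice of generation 3 without telomerase (Tert-/-), in which telomeres shorten over successive generations, and WT for Tert+/+ mice. Mice of both sexes, 6 to 8 weeks old, had 1 intraperitoneal injection of folic acid at 125 mg/kg, an agent that injures kidney tubules, or of its vehicle, 0.3 M NaHCO3 in 200 µl. Kidneys were perfused with cold saline before they were taken, which washes out part of the blood. Whole organs were read, so fewer cells of a type and less RNA per cell cannot be told apart.

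S100 proteins are small calcium-binding proteins, most of which work as pairs inside the cell and some of which act outside it on receptors such as Ager and Tlr4. S100a8 and S100a9 form calprotectin, an abundant protein of the neutrophil cytosol that also binds zinc and manganese and is made by monocytes. Retnlg encodes a resistin-like secreted protein and is used as a marker of mature neutrophils in mice. The other members are made by epithelial, stromal and muscle cells, where several of them bind annexins at membranes.

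The 7 S100 members lie on chromosome 3 and Retnlg on chromosome 16 (GRCm38, GENCODE M21). S100a1, S100a13, S100a6, S100a8 and S100a9 share 184.7 kb (chr3:90511034-90695721), and S100a11 with S100a10 lies 2.82 Mb further along. S100a8 (chr3:90668978-90670035, plus strand) and S100a9 (chr3:90692632-90695721, minus strand) are 22.6 kb apart. Retnlg spans chr16:48872621-48874496 on the plus strand. No member overlaps another annotated gene. The starts of the neutrophil genes are shown because these genes had similar profiles over the libraries, printed 5′ to 3′ on the strand of each gene from 250 bases before to 20 bases after the RefSeq start (GRCm38.p6). Capitals mark matches to GAGGAAGT, bound by the myeloid factor PU.1, to TTNNGNAA, the C/EBP motif, and to TATAAA, the TATA box.
S100a8, chr3:90668821-90669090: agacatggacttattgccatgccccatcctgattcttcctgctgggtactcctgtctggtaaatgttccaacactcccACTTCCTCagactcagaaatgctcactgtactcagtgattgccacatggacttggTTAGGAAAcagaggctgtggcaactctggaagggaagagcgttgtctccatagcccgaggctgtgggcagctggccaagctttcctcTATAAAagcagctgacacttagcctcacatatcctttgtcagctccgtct
S100a9, chr3:90695702-90695971: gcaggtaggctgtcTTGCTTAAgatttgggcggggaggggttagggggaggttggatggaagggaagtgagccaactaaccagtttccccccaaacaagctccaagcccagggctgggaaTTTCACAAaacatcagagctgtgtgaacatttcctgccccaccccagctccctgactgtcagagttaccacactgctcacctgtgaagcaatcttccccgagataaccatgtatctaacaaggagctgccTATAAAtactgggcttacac
Retnlg, chr16:48872358-48872627: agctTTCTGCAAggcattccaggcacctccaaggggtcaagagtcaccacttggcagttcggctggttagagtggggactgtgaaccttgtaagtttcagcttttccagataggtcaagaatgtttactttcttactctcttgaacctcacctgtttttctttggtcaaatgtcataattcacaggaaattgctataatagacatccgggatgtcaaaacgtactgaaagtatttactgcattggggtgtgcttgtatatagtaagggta

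The search covered both strands for the PU.1 and C/EBP motifs and the strand of the gene for the TATA box. No match in these windows overlapped a match to another motif. S100a8 held 1 PU.1 match, on the opposite strand at -172 to -165, a motif present in 2.72 percent of the 32851 RefSeq windows of 270 bases. S100a8 also held a C/EBP match at -117 to -110 and a TATA box at -30 to -25. S100a9 held 2 C/EBP matches, starting at -236 and -130, and a TATA box at 1 to 6, directly at the annotated start. Retnlg held 1 C/EBP match at -246 to -239 and no TATA box. The C/EBP motif is common, in 38.5 percent of all windows, and the TATA box was in 7.91 percent. These matches describe the letters only.

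Between 5014684 and 6609307 reads per library fell on genes (median 6091019), and 1 read was worth 0.895 to 1.13 normalised counts. Levels below are such normalised counts, and library numbers are names that follow accession order. Kidney identity was checked by genes of the proximal tubule and thick ascending limb, which were present in every library (Lrp2 at 4109 or more, Umod at 6649 or more). All 8 members passed the filter on low values, which asked for 10 normalised counts or more in 3 or more libraries. Judged by Xist, the RNA of the inactive X chromosome, and by Y-linked RNA, 10 of the 15 libraries did not match their labelled sex. Y-linked genes summed to over 100 normalised counts in 3 of 4 G3 folic acid and 0 of 4 G3 vehicle libraries. In WT they did so in 0 of 3 folic acid and 4 of 4 vehicle libraries. Libraries over 100 are called libraries with Y-linked RNA below, and the others had sums of 0.977 to 29.5. Sex and group are thus partly confounded, and sex cannot be told apart from treatment in WT or from genotype after vehicle. The 2 libraries G3 folic acid 4 and WT vehicle 2 held both Xist and Y-linked RNA. WT folic acid 1 stood apart from its group in injury genes, with Lcn2 at 358 against 11.5 and 12.4 in WT folic acid 2 and 3. The gene model Gm42418 took 23.0 percent of its reads, against 4.85 to 8.15 percent in the other 14 libraries, and what this has to do with the members' levels was not tested.

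Neutrophil S100a9 was lowest in G3 kidneys given folic acid and highest in WT kidneys given vehicle, and S100a8 and Retnlg had the same groups at both ends. S100a9 was the neutrophil member that passed the test, for G3 against WT after folic acid. It had 31.8, 15.0, 15.98 and 14.3 normalised counts in G3 folic acid kidneys, against 49.8, 50.8, 41.1 and 40.1 in G3 vehicle kidneys. In WT it had 23.8, 70.1 and 67.7 in folic acid kidneys, against 74.6, 79.6, 79.6 and 91.9 in vehicle kidneys. Every folic acid library of either genotype lay below every vehicle library of its genotype, and 1 library in each folic acid group, G3 folic acid 1 and WT folic acid 1, lay away from its mates. The group means were 19.3 ± 8.36 in G3 folic acid, 45.5 ± 5.64 in G3 vehicle, 53.9 ± 26.04 in WT folic acid (SD, n = 4, 4 and 3) and 81.5 ± 7.36 in WT vehicle (SD, n = 4). G3 vehicle and WT folic acid, next to each other in that order, overlapped.

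S100a8, the partner of S100a9 in calprotectin, had 44.5, 9.39, 18.98 and 33.1 normalised counts in G3 folic acid kidneys, against 45.8, 70.3, 45.4 and 37.1 in G3 vehicle kidneys. Among WT kidneys the values were 28.4, 65.3 and 50.5 in folic acid kidneys, against 104, 58.8, 91.1 and 110 in vehicle kidneys. The folic acid and vehicle libraries overlapped in both genotypes, through G3 folic acid 1 and through WT folic acid 2. Reads of S100a8 per read of S100a9 ranged from 0.625 to 2.31 in G3 folic acid, 0.918 to 1.38 in G3 vehicle, 0.746 to 1.19 in WT folic acid and 0.738 to 1.39 in WT vehicle. These ranges overlap, and the widest, in G3 folic acid, rests on 10 to 49 reads of S100a8 a library.

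Retnlg was read rarely, with 0.908, 1.88, 3.996 and 1.79 normalised counts in G3 folic acid kidneys, against 24.4, 8.79, 5.41 and 4.01 in G3 vehicle kidneys. In WT it had 3.40, 12.5 and 12.4 in folic acid kidneys, against 12.4, 14.2, 8.63 and 19.98 in vehicle kidneys. The G3 groups did not overlap, but their nearest libraries, G3 folic acid 3 and G3 vehicle 4, stood at 4 reads each, and G3 vehicle 1 stood far above its mates. Summed over libraries, Retnlg had 9 reads in G3 folic acid, 42 in G3 vehicle, 29 in WT folic acid and 55 in WT vehicle. In reads per 1000000 these are 0.381 (95% exact Poisson interval 0.174 to 0.723), 1.92 (1.39 to 2.60), 1.53 (1.03 to 2.20) and 2.21 (1.66 to 2.88). These intervals cover counting error only.

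**Figure D1:**
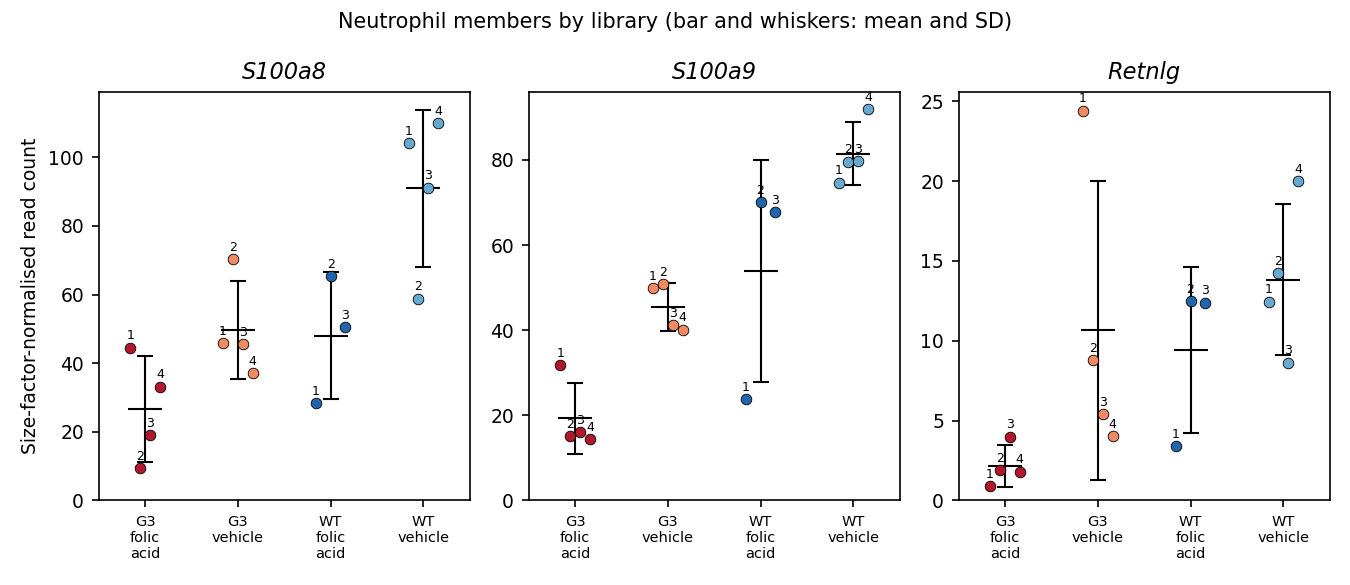
Size-factor-normalised read counts of S100a8, S100a9 and Retnlg (linear axes from 0) in each library of the 4 groups. Points are libraries with their replicate number, and bars with whiskers are the mean and SD. For S100a9 the G3 folic acid libraries lie at 14.3 to 31.8 and the WT vehicle libraries at 74.6 to 91.9.

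The first comparison set folic acid against vehicle in G3 kidneys, with limma on log2(normalised count + 1) and Benjamini-Hochberg adjustment over the 14651 genes tested. 0 of 8 members passed an adjusted p of 0.05, against 0.273 percent of all genes. At an unadjusted p under 0.05, limma counted 3 of 8 members, which are the neutrophil genes, against 13.8 percent of all genes. At an adjusted p under 0.05, DESeq2 called 1 member, S100a9, and edgeR 0. S100a9 was lower after folic acid by a log2 difference of -1.26 (SE 0.30, limma adjusted p = 0.0734), in 4 of 4 libraries below all vehicle libraries. The call for S100a9 was made by DESeq2 (log2 -1.23, adjusted p = 0.0125), by limma on the G3 groups alone (adjusted p = 0.0392) and by limma without WT folic acid 1 (adjusted p = 0.00646). These fits called 387, 208 and 364 genes, against 40 for limma on all 15 libraries. The S100a9 call was not made by edgeR (adjusted p = 0.0782) or by limma with the title series as a term. Nor did limma make it with the labelled sex (adjusted p = 0.116), with Y-linked RNA (adjusted p = 0.285) or without the 2 mixed libraries (adjusted p = 0.178). Within the series of title numbers that held libraries of both treatments, 4 against 1, the log2 difference was -1.10 for S100a9, -0.68 for S100a8 and -0.76 for Retnlg. Retnlg had a log2 difference of -1.68 (SE 0.53, limma adjusted p = 0.152), which was -2.25 in edgeR and -0.98 with a pseudocount of 5. S100a8 had -1.05 (SE 0.38, limma adjusted p = 0.210). The groups did not overlap, with folic acid lower, for 2 of 8 members, S100a9 and Retnlg, against 3.77 percent of all genes tested. For Retnlg the nearest libraries, G3 folic acid 3 and G3 vehicle 4, had 4 reads each and differed only by their size factors.

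For folic acid against vehicle in WT kidneys, 0 of 8 members passed the test, against 5.06 percent of all genes. At an unadjusted p under 0.05, limma counted 3 of 8 members, against 23.1 percent of all genes. At an adjusted p under 0.05, edgeR and DESeq2 called 0 members. S100a8 differed by log2 -0.95 (SE 0.41, limma adjusted p = 0.174), S100a9 by -0.73 (SE 0.33, adjusted p = 0.185) and Retnlg by -0.62 (SE 0.57, adjusted p = 0.550). S100a9 was the 1 member of 8 without overlap, lower after folic acid, against 10.6 percent of all genes. Without WT folic acid 1 the difference was log2 -0.23 for S100a9, -0.62 for S100a8 and -0.086 for Retnlg. Every WT vehicle library and no WT folic acid library held Y-linked RNA, so sex and treatment cannot be told apart here. The same limit enters the difference of the folic acid effects given below. With Y-linked RNA as a term S100a8 changed sign, to log2 0.18 (limma adjusted p = 0.990), and S100a9 was at -0.34 (adjusted p = 0.981). Within the series of title numbers shared by 3 libraries of each treatment the difference was -0.67 for S100a9, -0.84 for S100a8 and -0.44 for Retnlg. The difference between the folic acid effects of G3 and WT was log2 -0.53 for S100a9 (95% interval -1.47 to 0.40), -0.10 for S100a8 (-1.28 to 1.08) and -1.05 for Retnlg (-2.70 to 0.59). Without WT folic acid 1 these were log2 -1.03 for S100a9 (limma adjusted p = 0.114), -0.43 for S100a8 (adjusted p = 0.752) and -1.59 for Retnlg (adjusted p = 0.283). None of the 8 members passed that test, against 3.82 percent of all genes. At an unadjusted p under 0.05 limma counted 1 member, S100a13, against 16.8 percent of all genes, edgeR and DESeq2 0 after adjustment.

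After folic acid, S100a9 was lower in G3 than in WT kidneys by a log2 difference of -1.36 (0.389-fold, SE 0.33, limma adjusted p = 0.0391). It was the 1 of 8 members called, against 2.3 percent of all genes tested (1.58 percent called lower). The libraries overlapped, since WT folic acid 1 (23.8) lay below G3 folic acid 1 (31.8). edgeR (adjusted p = 0.0300) and DESeq2 (adjusted p = 0.00151) made the same call. It was lost with Y-linked RNA as a term (log2 -1.59, limma adjusted p = 0.171), with the folic acid groups fitted alone (adjusted p = 0.133), without the 2 libraries of mixed Xist and Y-linked RNA (adjusted p = 0.0637), and in 8 of 15 fits that left out 1 library (adjusted p 0.00656 to 0.165 over the 15). Without WT folic acid 1 it was log2 -1.86. The G3 folic acid libraries all belong to 1 series of title numbers and the WT folic acid libraries all to another, so series and genotype cannot be told apart here. Retnlg had log2 -1.65 (SE 0.57, limma adjusted p = 0.123) and S100a8 -0.96 (SE 0.41, adjusted p = 0.197), and without WT folic acid 1 Retnlg stood at log2 -2.18 (adjusted p = 0.0474).

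After vehicle, the neutrophil genes were again lower in G3 than in WT, by log2 -0.83 for S100a9 (SE 0.30, limma adjusted p = 0.146), -0.86 for S100a8 (SE 0.38, adjusted p = 0.242) and -0.59 for Retnlg (SE 0.53, adjusted p = 0.602). None of these passed the test. The 4 G3 vehicle libraries of S100a9 (40.1 to 50.8) lay below the 4 WT vehicle libraries (74.6 to 91.9), 1 of 8 members lower without overlap, against 6.72 percent of all genes. S100a9 passed without WT folic acid 1 (limma adjusted p = 0.0416) and with the vehicle groups fitted alone (adjusted p = 0.0160), at the same log2 value. Every WT vehicle library and no G3 vehicle library held Y-linked RNA, so sex and genotype cannot be told apart here. With Y-linked RNA as a term the log2 difference was -0.43 for S100a9 (limma adjusted p = 0.888) and 0.29 for S100a8 (adjusted p = 0.928), which changed sign. Most libraries of the vehicle groups also came from different series of title numbers. Within the series that held both genotypes, 1 library each, the log2 difference was -1.18 for S100a9, -1.54 for S100a8 and -2.07 for Retnlg. The comparisons share groups, so their values for S100a9 are not independent of each other.

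Other genes of mature neutrophils differed among themselves in their group means. Of 15 genes on the list, 11 were in the table and 6 were tested, and without the members 3 tested genes remained. Of these 3, 0 passed in any of the 5 comparisons. Csf3r, the receptor for granulocyte colony-stimulating factor, had 14.8 ± 4.17 in G3 folic acid, 14.7 ± 3.36 in G3 vehicle, 12.7 ± 3.86 in WT folic acid (SD, n = 4, 4 and 3) and 13.3 ± 5.65 in WT vehicle (SD, n = 4). Its folic acid difference in G3 was log2 -0.01 (95% interval -0.71 to 0.70). Cxcr2, a chemokine receptor of neutrophils, had 11.7 ± 3.10 in G3 folic acid, 23.2 ± 9.55 in G3 vehicle, 11.8 ± 5.76 in WT folic acid (SD, n = 4, 4 and 3) and 11.1 ± 3.00 in WT vehicle (SD, n = 4). Its highest group was thus G3 vehicle, at log2 0.95 over WT vehicle (SE 0.36, limma adjusted p = 0.165), and its folic acid difference in G3 was -0.87 (SE 0.36, adjusted p = 0.280), in the direction of S100a8 and S100a9. Fpr2, a formyl peptide receptor also made by macrophages, had a folic acid difference in G3 of log2 2.27 (SE 0.77, limma adjusted p = 0.185), the opposite direction. Mmp9, a protease stored in neutrophil granules, stayed between 0 and 7.82 and was not tested. Summed without the members, the list had a range of 35.0 to 60.8 in G3 folic acid, 43.3 to 64.5 in G3 vehicle, 33.6 to 55.6 in WT folic acid and 31.7 to 45.5 in WT vehicle. Trem1 was at 0 in 7 of the 15 libraries and Fpr1 in 9, so the list rests on few reads. Ly6g and the listed granule genes of neutrophil precursors were not found by symbol among the deposited genes, so they could not be analysed.

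RNA of red blood cells was also lowest in G3 folic acid kidneys. The summed erythroid list ranged from 6177 to 22087 in G3 folic acid, 27153 to 44529 in G3 vehicle, 17463 to 23002 in WT folic acid and 16305 to 35061 in WT vehicle. Of its 5 genes, 2 passed the test for folic acid in G3, both lower, against 0.273 percent of all genes. These were Hba-a2, a haemoglobin chain (log2 -1.53, SE 0.28, limma adjusted p = 0.0377), and Alas2, which starts haem synthesis in red cell precursors (log2 -1.56, SE 0.27, adjusted p = 0.0252). The erythroid sums of the 2 vehicle groups overlapped, with a median of 35084 in G3 vehicle and 31106 in WT vehicle. The part of blood left in the vessels in the levels of S100a8, S100a9 and Retnlg was not tested. Macrophage genes had a summed level of 1357 to 3138 in G3 folic acid, 826 to 1277 in G3 vehicle, 1370 to 3575 in WT folic acid and 1105 to 1508 in WT vehicle. Of the 12 macrophage genes, 2 passed the test for folic acid in G3, both higher, against the same share of all genes. These were Itgam, an integrin chain that neutrophils also carry (log2 2.35, SE 0.46, limma adjusted p = 0.0417), and Fcgr1, an antibody receptor of monocytes and macrophages (log2 4.81, SE 0.54, adjusted p = 0.000604). S100a8, S100a9 and Retnlg had their lowest means in G3 folic acid.

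**Figure D2:**
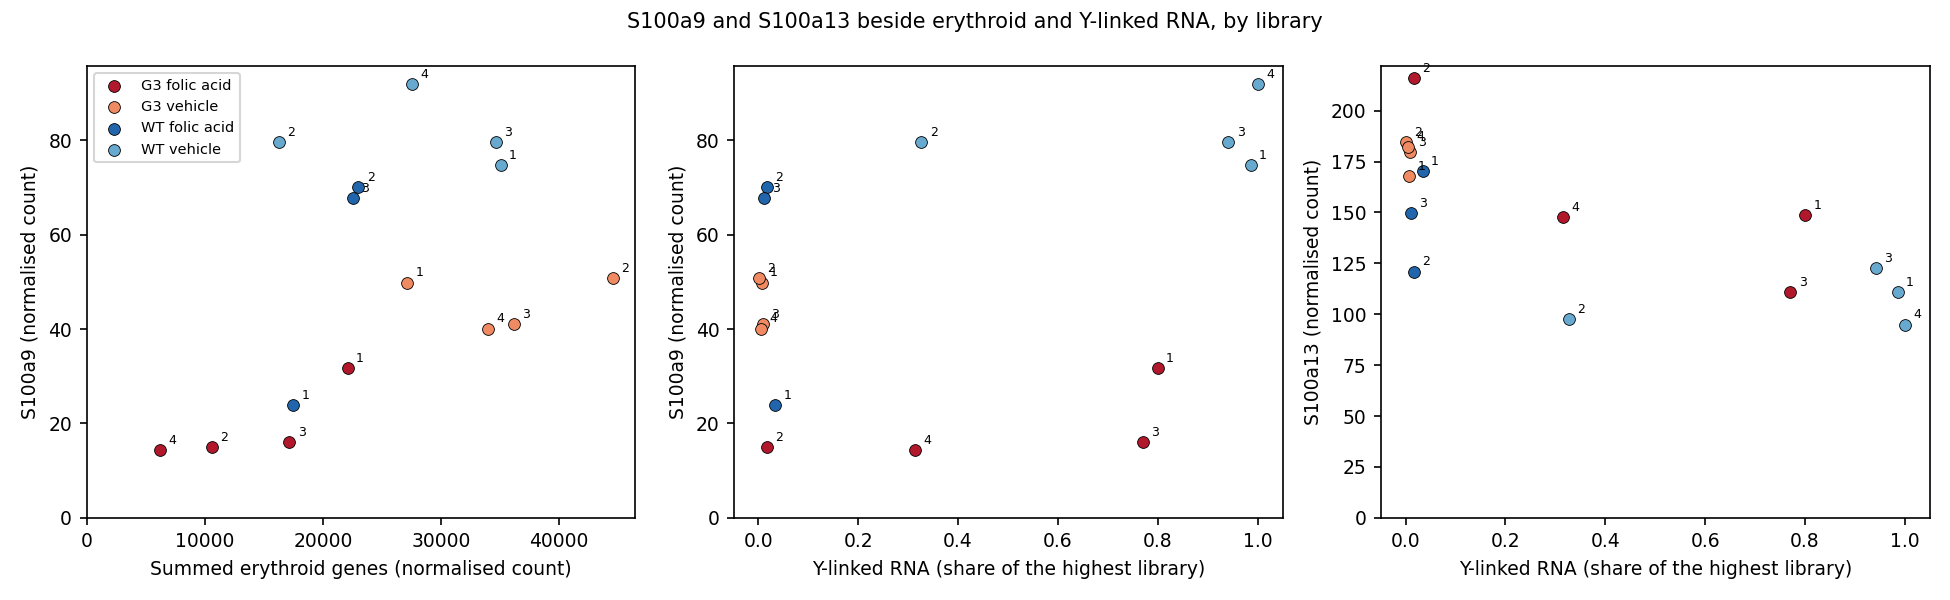
Each point is 1 library with its replicate number. S100a9 is plotted against the summed erythroid genes (left) and against Y-linked RNA as a share of the highest library (middle), and S100a13 against the same share (right), all in normalised counts. The G3 folic acid points lie low in S100a9 at erythroid sums of 6177 to 22087, and S100a13 is at 94.9 to 149 in the libraries with Y-linked RNA and at 121 to 216 in the others.

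S100a13, which helps proteins without a signal peptide to leave the cell, was higher in G3 than in WT kidneys after vehicle. It had 168, 185, 180 and 182 normalised counts in G3 vehicle kidneys, against 111, 97.6, 123 and 94.9 in WT vehicle kidneys. The 4 G3 vehicle libraries lay close together and above all 4 WT vehicle libraries. The log2 difference was 0.75 (1.68-fold, SE 0.17, limma adjusted p = 0.0280). It was the 1 of 8 members called, against 2.9 percent of all genes (0.867 percent called higher), and the 1 member higher without overlap, against 4.29 percent. After folic acid S100a13 had 149, 216, 111 and 148 in G3 kidneys, against 170, 121 and 150 in WT kidneys. These libraries overlapped fully, with G3 folic acid 2 the highest and G3 folic acid 3 the lowest, and the log2 difference was 0.06 (SE 0.19, limma adjusted p = 0.893).

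The vehicle difference of S100a13 likewise cannot be told apart from sex. With Y-linked RNA as a term the vehicle difference of S100a13 was log2 0.42 (limma adjusted p = 0.821), with the labelled sex 0.67 (adjusted p = 0.190), and without the 2 mixed libraries 0.71 (adjusted p = 0.0540). Within the series of title numbers that held both genotypes after vehicle, 1 library each, it was 0.94. The call was kept in 10 of the 15 fits that left out 1 library (limma adjusted p 0.00726 to 0.0965 over the 15), and was lost without G3 vehicle 2, 3 or 4 or WT vehicle 1 or 4. Over all groups S100a13 stood at 94.9 to 149 (median 111) in the 7 libraries with Y-linked RNA, against 121 to 216 (median 175) in the 8 others. The 7 include the 4 WT vehicle libraries and the 8 the 4 G3 vehicle libraries, so this split partly repeats the vehicle comparison. Within G3 folic acid the 3 libraries with Y-linked RNA had 111 to 149 and the 1 without had 216. The folic acid difference of S100a13 was log2 0.45 in WT (SE 0.19, limma adjusted p = 0.152), where sex and treatment cannot be told apart, and -0.24 in G3 (SE 0.17, adjusted p = 0.599). The difference between these effects was log2 -0.69 (SE 0.25, adjusted p = 0.161), and it passed without G3 folic acid 2 (log2 -0.86, adjusted p = 0.0288).

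S100a1, known in heart and muscle for its role in calcium handling, starts head to head with S100a13, and 42 bases separate the annotated starts. That stretch is shown, on the plus strand, because these neighbours had different profiles.
S100a1 to S100a13, chr3:90514393-90514434: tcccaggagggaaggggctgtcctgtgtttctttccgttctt

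S100a1 had 2298, 2035, 2898 and 2970 normalised counts in G3 folic acid kidneys, against 3887, 3228, 2286 and 2719 in G3 vehicle kidneys. The WT values were 2477, 4056 and 3823 in folic acid kidneys, against 3607, 6139, 2631 and 3242 in vehicle kidneys. All groups overlapped, and WT vehicle 2 held the highest value. The log2 differences of S100a1 ran from -0.42 to -0.10 over the 5 comparisons (limma adjusted p 0.371 to 0.923), with a 95% interval of -0.96 to 0.12 for the largest, G3 against WT after folic acid, which was log2 -0.64 without WT folic acid 1. Reads of S100a1 per read of S100a13 were 9.42 to 26.1 in G3 folic acid, 12.7 to 23.2 in G3 vehicle, 14.6 to 33.5 in WT folic acid and 21.4 to 62.9 in WT vehicle.

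S100a6, also called calcyclin and found in fibroblasts and in many epithelia, varied widely between libraries of the same group. It had 429, 398, 243 and 446 normalised counts in G3 folic acid kidneys, against 813, 117, 594 and 247 in G3 vehicle kidneys. In WT it had 675, 199 and 205 in folic acid kidneys, against 310, 94.8, 455 and 97.9 in vehicle kidneys. The vehicle groups each held 2 libraries high and 2 low, and WT folic acid 1 stood above its mates. Its largest log2 difference was 0.85 for G3 against WT after vehicle (SE 0.58, limma adjusted p = 0.480), with a 95% interval of -0.38 to 2.08. The folic acid difference in G3 was log2 0.10 (SE 0.58, adjusted p = 0.970) and changed sign under 4 settings other than leaving out a library, among them edgeR (-0.20). In WT it was log2 0.66 (SE 0.63, limma adjusted p = 0.564), and 0.083 without WT folic acid 1.

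Among the vehicle kidneys S100a6 was high in the libraries with high genes of the urothelium, the lining of the renal pelvis that dissection can carry along. In the 4 vehicle libraries with the larger urothelium sums (132 to 406), G3 vehicle 1 and 3 and WT vehicle 1 and 3, S100a6 was 310 to 813. In the other 4 (urothelium sums of 14.7 to 42.1) S100a6 was 94.8 to 247, so the ranges did not overlap. Of the 17 marker lists, 2 besides the urothelium list divided the same libraries without overlap. The collecting duct list stood at 3400 to 4488 and 1861 to 2847, and the T cell list at 29.2 to 49.8 and 18.6 to 26.97. S100a11 showed the same split, at 1390 to 1738 and at 902 to 1221, and S100a10 did not, at 196 to 336 and at 172 to 382. After folic acid the urothelium sums were 6.99 to 65.8 in G3 and 56.2 to 86.2 in WT, and S100a6 reached 446 in G3 and 675 in WT. In these kidneys S100a6 was highest where macrophage sums were highest, in G3 folic acid 1, 2 and 4 (2531 to 3138) and WT folic acid 1 (3575), against 1357 to 1404 in the others. Fibroblast and pericyte sums (2038 to 4476 against 727 to 1258) and tubular injury sums (6889 to 8995 against 3947 to 4235) divided the same libraries. Proximal tubule sums (18103 to 23760 against 32068 to 32490) and distal tubule sums (1188 to 5465 against 5747 to 8867) did so in the other direction. The share of all genes that divide these libraries in the same way was not counted, so the splits do not set S100a6 or S100a11 apart from other genes. These are descriptions over single libraries, and the part of any cell type in the level of S100a6 was not tested.

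**Figure D3:**
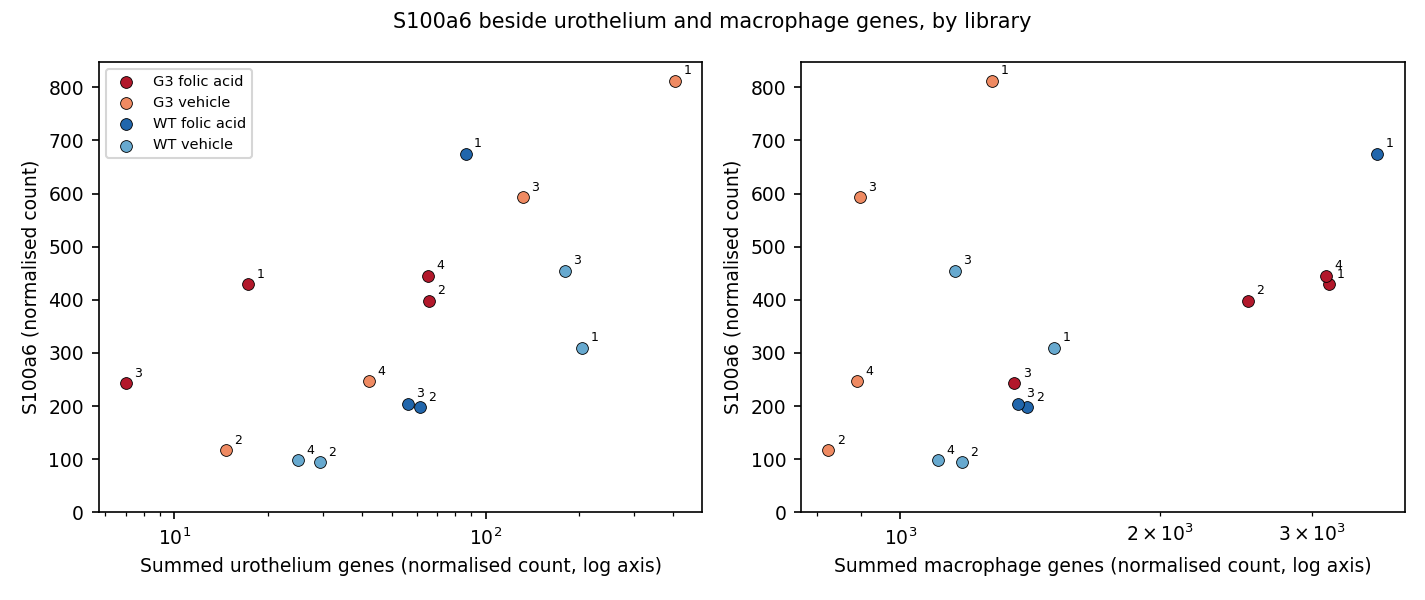
S100a6 (normalised count, linear axis) against the summed urothelium genes (left, log axis) and the summed macrophage genes (right, log axis), 1 point a library with its replicate number. The 4 vehicle libraries with urothelium sums of 132 to 406 have S100a6 at 310 to 813, and the folic acid libraries with macrophage sums of 2531 to 3575 have S100a6 at 398 to 675.

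S100a11, which binds annexin A1 and is made by many epithelia, had 1895, 1863, 1449 and 1912 normalised counts in G3 folic acid kidneys, against 1390, 971, 1709 and 1221 in G3 vehicle kidneys. In WT kidneys it stood at 2117, 1309 and 1450 in folic acid kidneys, against 1676, 902, 1738 and 1199 in vehicle kidneys. G3 folic acid 3 was low for its group and overlapped the vehicle range. The folic acid difference of S100a11 in G3 was log2 0.45 (SE 0.21, limma adjusted p = 0.363) and in WT 0.25 (SE 0.23, adjusted p = 0.543), which was 0.048 without WT folic acid 1. It differed by log2 0.15 between G3 and WT after folic acid (SE 0.23, adjusted p = 0.748), or 0.36 without WT folic acid 1, and by -0.04 after vehicle (SE 0.21, adjusted p = 0.947).

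S100a10, which does not bind calcium and forms a complex with annexin A2 at the plasma membrane, had 418, 373, 250 and 265 normalised counts in G3 folic acid kidneys, against 208, 382, 336 and 301 in G3 vehicle kidneys. Among WT kidneys the values were 431, 201 and 234 in folic acid kidneys, against 196, 172, 269 and 269 in vehicle kidneys. All groups overlapped, and WT folic acid 1 was the highest library, as it was for S100a11. The log2 differences of S100a10 were 0.09 for folic acid in G3, 0.30 for folic acid in WT, 0.22 for G3 against WT after folic acid and 0.43 after vehicle (limma adjusted p 0.383 to 0.924). Without WT folic acid 1 the folic acid difference in WT was log2 -0.033 and the difference after folic acid 0.55. Anxa2, the annexin partner of S100a10, was 519 ± 148 in G3 folic acid, 393 ± 174 in G3 vehicle, 510 ± 274 in WT folic acid (SD, n = 4, 4 and 3) and 405 ± 129 in WT vehicle (SD, n = 4). Its folic acid difference was log2 0.44 in G3 (SE 0.33, limma adjusted p = 0.622) and 0.27 in WT (SE 0.36, adjusted p = 0.706).

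**Figure D4:**
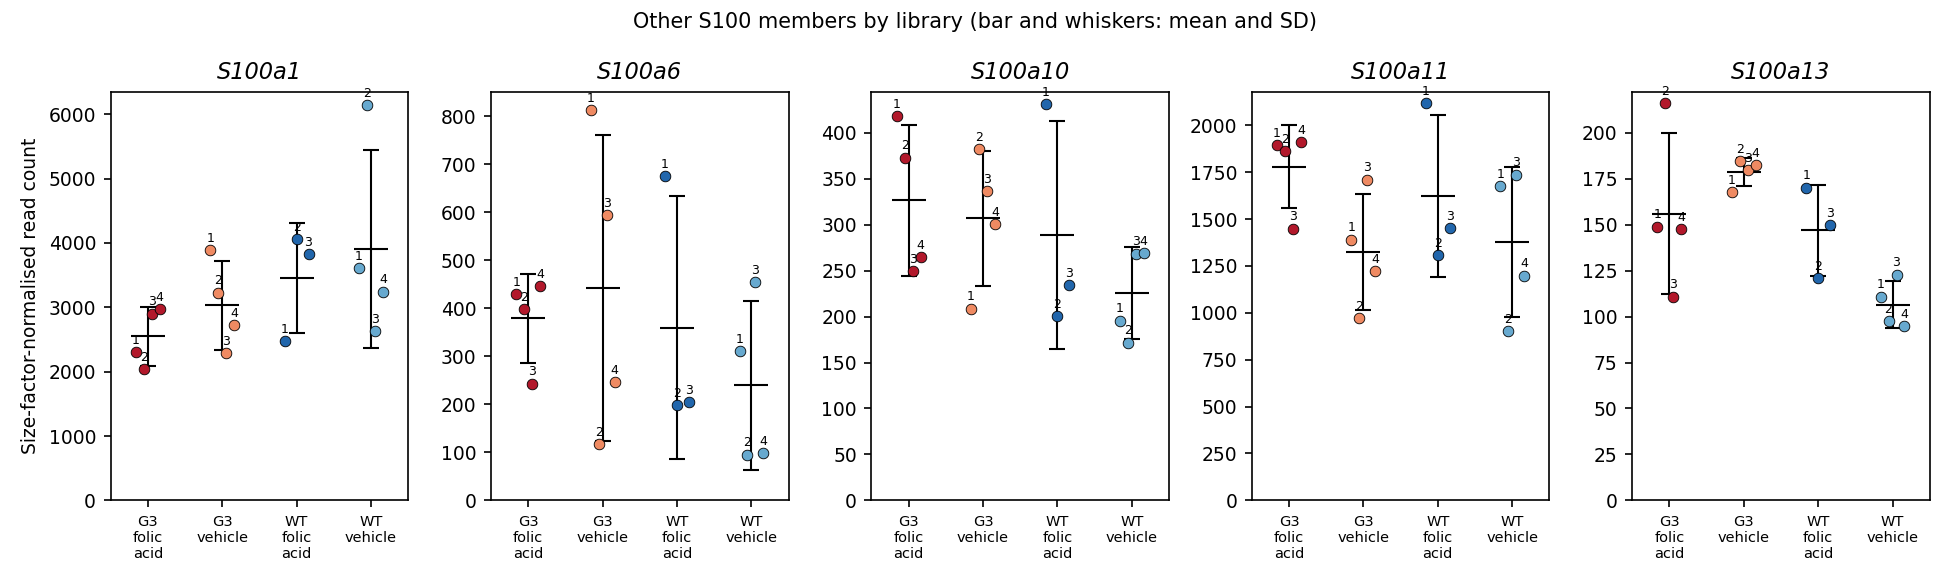
Size-factor-normalised read counts of S100a1, S100a6, S100a10, S100a11 and S100a13 (linear axes from 0) by library and group, with replicate numbers, and the mean and SD as bar and whiskers. For S100a13 the 4 G3 vehicle libraries lie at 168 to 185 and the 4 WT vehicle libraries at 94.9 to 123.

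Over the 40 pairs of member and comparison, 2 passed the test, S100a9 for G3 against WT after folic acid and S100a13 for G3 against WT after vehicle. That is 5 percent of the pairs. The 2 calls came from comparisons in which 2.3 and 2.9 percent of all genes passed, and single comparisons ranged from 0.273 to 5.06 percent. A share of all genes pooled over the 5 comparisons was not computed. The median log2 difference of the 3 neutrophil members was -1.26 for folic acid in G3, -0.73 for folic acid in WT, -1.36 for G3 against WT after folic acid and -0.83 after vehicle. The median of the 5 other members was 0.09, 0.30, 0.15 and 0.43 in the same order, and over all genes tested it was -0.01, 0.01, 0.01 and 0.02.

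**Figure D5:**
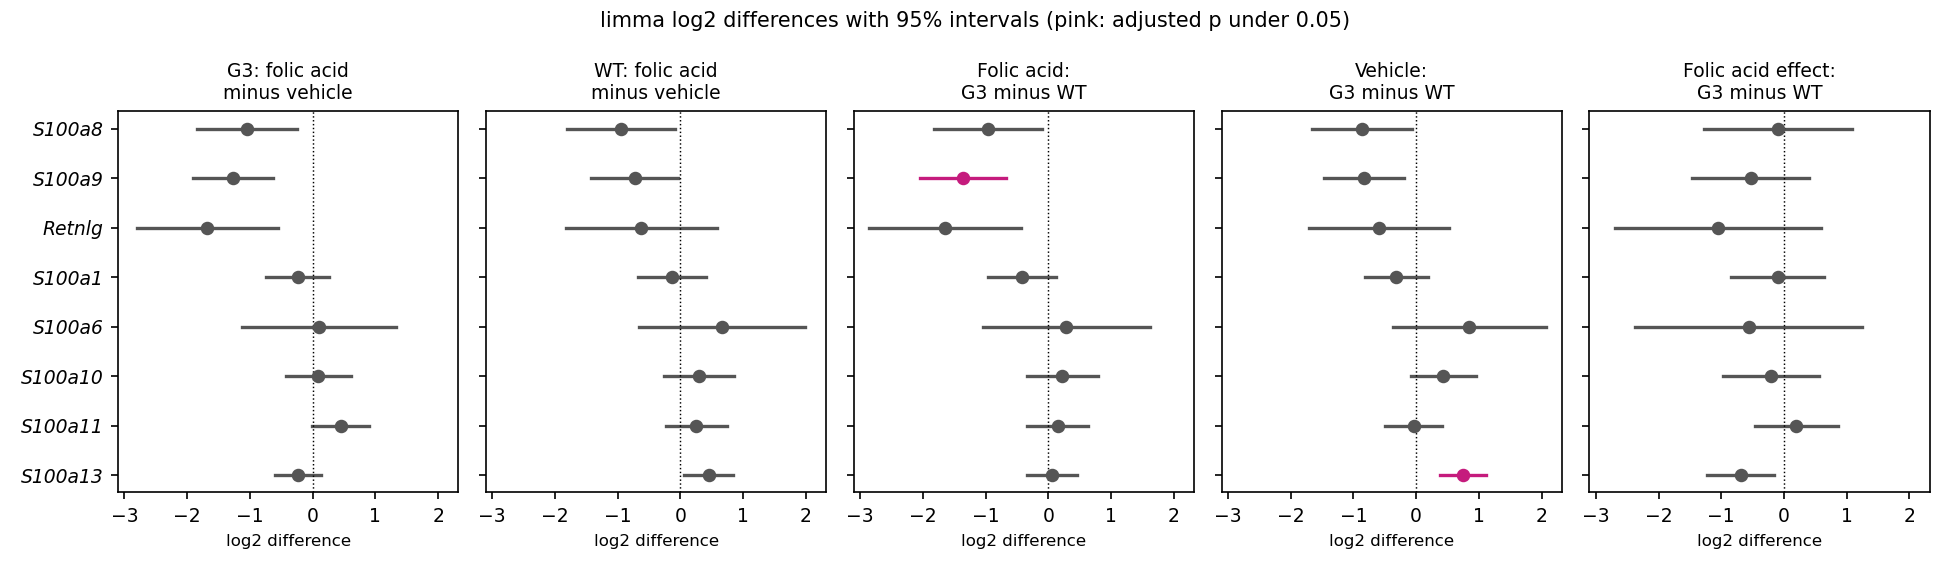
Log2 differences (x axis, first group minus second, from limma on log2(normalised count + 1)) of the 8 members in 5 comparisons, with 95% intervals as lines. The intervals of S100a9 for G3 minus WT after folic acid (-2.05 to -0.68) and of S100a13 for G3 minus WT after vehicle (0.38 to 1.11) belong to the 2 adjusted p-values under 0.05.

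Of the S100 family the table held 6 further genes. S100a16, which lies in the same cluster, passed the test for folic acid in WT (log2 0.65, SE 0.12, limma adjusted p = 0.0119) and for the difference of the folic acid effects (log2 -0.61, SE 0.16, adjusted p = 0.0477). Of all genes 5.06 and 3.82 percent passed in these comparisons. Both use the WT folic acid and WT vehicle kidneys, in which sex and treatment cannot be told apart. Refits with Y-linked RNA as a term are not given for S100a16. S100a16 was 302 ± 19.3 in G3 folic acid, 294 ± 22.9 in G3 vehicle, 361 ± 49.0 in WT folic acid (SD, n = 4, 4 and 3) and 229 ± 19.2 in WT vehicle (SD, n = 4). S100a4, a gene of fibroblasts and leukocytes, averaged 75.3 ± 20.9 in G3 folic acid kidneys and 34.6 ± 26.4 in WT folic acid kidneys (SD, n = 4 and 3; log2 1.31, SE 0.37, limma adjusted p = 0.0709). S100g, the calcium carrier of the distal tubule, was 1076 in WT folic acid 1 and 3562 to 9248 in the WT vehicle and G3 vehicle libraries. The other folic acid kidneys lay inside that vehicle range, with 7119 and 7342 in WT folic acid 2 and 3 and 5661 to 8107 in G3. The folic acid difference of S100g was log2 -0.41 in WT (SE 0.47, limma adjusted p = 0.644) and -0.27 in G3 (SE 0.44, adjusted p = 0.858). S100a7a, S100a14 and S100b stayed at or below 9.99, 8.46 and 29.5 normalised counts and were not tested.

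Among 12 partners and receptors of S100 proteins, 10 were tested. With folic acid 0 of the 10 passed in G3. In WT 2 passed as higher, Anxa6 (log2 1.10, SE 0.21, limma adjusted p = 0.0132) and Ahnak (log2 0.82, SE 0.20, adjusted p = 0.0302), and 1 as lower, Cd36 (log2 -1.36, SE 0.32, adjusted p = 0.0261). Cd36, a fatty acid carrier, was lower in G3 than in WT after vehicle (log2 -1.82, SE 0.30, limma adjusted p = 0.00431), the 1 of 10 that passed there, and 0 passed after folic acid. For the difference of the folic acid effects Anxa6 (log2 -1.06, SE 0.29, limma adjusted p = 0.0491) and Cd36 (log2 1.90, SE 0.43, adjusted p = 0.0221) passed. Of all genes tested 0.273 percent passed for folic acid in G3, 5.06 percent in WT and 2.3 percent between genotypes after folic acid. After vehicle 2.9 percent passed, and 3.82 percent for the difference of effects. Sex cannot be told apart from treatment in WT or from genotype after vehicle, and the difference of effects shares this limit. Refits with Y-linked RNA as a term are not given for these genes. Ager was 30.2 ± 12.2 in G3 folic acid, 18.9 ± 12.2 in G3 vehicle, 18.3 ± 4.97 in WT folic acid (SD, n = 4, 4 and 3) and 19.7 ± 6.64 in WT vehicle (SD, n = 4). Its folic acid difference in G3 was log2 0.80 (SE 0.42, limma adjusted p = 0.422), and Tlr4, at 1.13 to 7.16, was not tested.

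The genes most alike in pattern were sought among 11755 tested genes with a mean of at least 20, by Pearson's r of log2(normalised count + 1) over the 15 libraries. With the mean of the 3 neutrophil members these were Piga (r = 0.95), Gm10804 (0.91) and Nbn (0.91). With the mean of S100a6, S100a10 and S100a11 they were Lmo2 (r = 0.93), Tpm4 (0.92) and Serping1 (0.92). S100a1 was most like Cdk12 (r = 0.97), Acsl3 (0.96) and Evc (0.94), and S100a13 most like Cd200 (r = 0.93), Acsl5 (0.91) and H2-Q4 (0.90). These are descriptions over libraries that share groups, size factors and the sex pattern given above.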

How the data were processed

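Polyadenylated RNA of 15 whole mouse kidneys was read at its 3' end (QuantSeq, stranded, per the labels' protocols). The authors' tools were, per the submitters' processing notes, FastQC 0.11.7, TopHat2 2.0.10, Bowtie 1.0.0, SAMtools 0.1.19, GRCm38, HTSeq 0.6.1 and DESeq2. The deposited values are a signal: gene counts divided by 1 size factor per library. Whole reads were recovered for 100 percent of values within 0.001, and edgeR 4.0.16 and DESeq2 1.42.0 used these as alternatives.

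Genes that reached a value of 10 in 3 or more libraries (14651) entered limma 3.58.1 in R 4.3.3, on log2(value + 1), with a mean-variance trend and 1 term per group, after a check on simulated data. A fold change on that scale understates the change of low genes. The labels describe separate kidneys, and p-values measure the spread between them. The labelled sex was left out because Xist and Y-linked RNA went against it.

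Named are all members, other S100 genes, set examples from each marker list, and called genes where a list had few and Fpr2, these last chosen after their values were seen. The members and lists were chosen with earlier results of these data known. Positions are from GENCODE M21, and promoter sequences from RefSeq (GRCm38.p6), matched by symbol for 7 of 8 members, S100a10 being named only.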

Additional observations from a re-analysis of the deposited data

Results flagged for a closer look

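In each group of 4 libraries the highest and lowest library of every member was compared with its nearest neighbour by Dixon's test, over 24 groups of member and condition, of which chance flags about 1 in 20. S100a9 in G3 folic acid 1 (31.8 normalised counts) stood above the other 3 G3 folic acid libraries (14.3 to 15.98). S100a11 in G3 folic acid 3 (1449 normalised counts) stood below the other 3 (1863 to 1912). That library also had the lowest macrophage sum (1357) and the lowest Havcr1 (22.0) and Lcn2 (34.0) of the G3 folic acid kidneys, and what these have to do with S100a11 was not tested.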

How the results depend on the processing

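No paired analysis was possible because replicate numbers follow accession order and pair no animals. Of 432 member values refitted under other settings, 396 kept direction and side of the threshold, 8 lost the call, 3 gained it and 25 changed sign. Of 600 with 1 library left out these were 561, 13, 4 and 22. The causes were not tested.

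For folic acid in G3, folic acid in WT, G3 against WT after folic acid, after vehicle, and the difference of effects, limma called 40, 741, 337, 425 and 560 genes. With the labelled sex it called 12, 370, 268, 17 and 103, with Y-linked RNA 9, 1, 17, 1 and 2, and with the title series 0, 2, 0, 1 and 3 (at unadjusted p under 0.05, 615 for folic acid in G3 and 623 for G3 against WT after folic acid). DESeq2 called 387, 1257, 778, 787 and 812. Fits of the compared groups only called 208, 420, 74 and 578, and fits without the 2 mixed libraries 11, 1241, 567, 613 and 959. Leaving out 1 library gave 3 to 364, 99 to 1309, 27 to 615, 83 to 686 and 260 to 928 genes, with 364 and 615 without WT folic acid 1 and the other 3 highest counts without WT vehicle 2.

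Members called numbered 1 for folic acid in G3 under DESeq2 and with the compared groups only. After folic acid they numbered 0 with Y-linked RNA, the title series, the compared groups only and without the mixed libraries. After vehicle they numbered 0 with the labelled sex, Y-linked RNA, the title series and without the mixed libraries, and 2 with the compared groups only. Leaving out 1 library gave 0 to 1 for folic acid in G3 and for the difference of effects, and 0 to 2 for both comparisons of G3 with WT. The call for S100a9 after folic acid was lost with Y-linked RNA (log2 -1.59), the title series (-1.60), the compared groups only (-1.36) and without the mixed libraries (-1.25), with -1.86 to -1.10 on leaving out 1 library. The call for S100a13 after vehicle was lost with the labelled sex (0.67), Y-linked RNA (0.42), the title series (0.94) and without the mixed libraries (0.71), with 0.69 to 0.82 on leaving out 1 library.

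None of the values that changed sign had passed the test. For folic acid in G3, S100a6 was -0.067 with the labelled sex, -0.17 with Y-linked RNA, -0.20 in edgeR and -0.22 in DESeq2 (-0.41 to 0.51 on leaving out 1 library), and S100a10 -0.042 with Y-linked RNA (-0.085 to 0.21). For folic acid in WT, S100a8, at -0.95 without a further term, was 0.18 with Y-linked RNA, and S100a1 0.11 without the mixed libraries (-0.30 to 0.11 on leaving out 1 library), and S100a10 ranged from -0.033 to 0.52. After folic acid S100a10 was -0.14 with the title series and S100a11 -0.0034 with Y-linked RNA, and on leaving out 1 library S100a6 ranged from -0.013 to 0.87 and S100a13 from -0.11 to 0.21. After vehicle S100a8, at -0.86 without a further term, was 0.29 with Y-linked RNA, and S100a11 0.16, 0.24 and 0.026 with the labelled sex, Y-linked RNA and the title series (-0.23 to 0.10). For the difference of effects, S100a8 was 0.081 with the labelled sex, 0.17 with the title series, 0.011 in edgeR and 0.0062 in DESeq2 (-0.43 to 0.30), S100a9, at -0.53 without a further term, 0.088 with the labelled sex, and S100a1 0.043, 0.49 and 0.090 with the labelled sex, Y-linked RNA and the title series (-0.35 to 0.062). S100a6 was 0.23 with the title series (-1.08 to 0.017), S100a10 0.0045 without the mixed libraries (-0.43 to 0.12), and S100a11 -0.048 and -0.24 with the labelled sex and Y-linked RNA. Retnlg rests on 1 to 24 reads a library, and groups hold 3 or 4 kidneys.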
